A study of Homo sapiens with 6 samples.

Results

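The Wnt genes described here are 39 components and targets of the Wnt pathway, chosen by symbol from the study's gene count tables: receptors, the destruction complex, TCF factors, and feedback and target genes. All 39 were among the 28278 symbols of the tables, and 36 had enough reads to be tested. The libraries came from HCT116, a human colon carcinoma cell line known to carry a mutant beta-catenin allele. The shTRIM21 group (n = 3) stably expressed a short hairpin RNA against TRIM21, an E3 ubiquitin ligase and antibody receptor of the cytosol, and the shControl group (n = 3) a scrambled hairpin. Both hairpins were delivered by lentivirus, both groups were selected with 5 μg/ml puromycin starting 36 h after infection, and both were sampled at day 21; the total RNA was depleted of ribosomal RNA before sequencing. The labels call the samples biological replicates but do not say whether each came from its own infection or culture, so the p-values measure the spread between these samples. They give neither the hairpin sequences nor whether more than 1 hairpin or clone was used.

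In Wnt signalling, Frizzled receptors and the co-receptors LRP5 and LRP6 bind Wnt ligands at the cell surface. Without a ligand, the destruction complex of APC, AXIN1, the kinases GSK3A and GSK3B and casein kinase CSNK1A1 phosphorylates beta-catenin, which is then ubiquitinated and degraded. When the complex is blocked, beta-catenin enters the nucleus and activates target genes with TCF factors, among them AXIN2, LGR5 and MYC in intestinal epithelium. In colon carcinoma the pathway is usually active through loss of APC or, as in HCT116, through beta-catenin that escapes phosphorylation.

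TRIM21, the targeted gene, had 225, 182 and 173 reads in the shTRIM21 libraries, against 288, 286 and 443 reads in the shControl libraries. It was lower in shTRIM21 by a log2 fold change of -0.73 (SE 0.17, adjusted p = 0.0124), and the groups did not overlap. The call was lost without shTRIM21 replicate 3, and likewise when both replicates numbered 3 were left out, where the highest adjusted p was 0.114. Library totals ran from 22656160 to 25842818 reads in shTRIM21 and from 24646400 to 27123657 reads in shControl. Of 6 colon epithelial markers, 5 reached at least 5 counts per 1000000 reads (CPM). The summed level of all 6 was 170 to 173 CPM in shTRIM21, against 182 to 195 CPM in shControl. KRT18 and KRT8 had the highest levels of the 6. None of the 6 had an adjusted p under 0.05, and EPCAM alone had a positive log2 fold change. Every one of the 16 fibroblast, leukocyte and endothelial markers stayed under 1 CPM, and 7 of them were at 0 in all libraries. In bulk RNA, fewer cells expressing a gene and less RNA per cell cannot be told apart.

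Of the 36 Wnt genes tested, 3 had an adjusted p under 0.05 (edgeR, quasi-likelihood test), which was 8.33% of them, beside 9.08% of all 14002 genes tested. LGR4 rose in shTRIM21, and APC and CSNK1A1 fell; over all genes, 4.43% rose and 4.66% fell. APC, the scaffold of the destruction complex, was by far the most changed of the 3, with 102 CPM in shTRIM21 and 193 CPM in shControl. The share of the Wnt genes called was thus close to that of all genes, and the remaining 33 tested did not pass. The median log2 fold change of the 36 was 0.08, with 19 above 0 and 17 below, against a median of 0.01 over all genes tested. For 12 of the 36 the groups did not overlap, 7 higher and 5 lower in shTRIM21, beside 28.1% of all genes tested (14.1% higher and 13.9% lower). Called Wnt genes numbered 6 when the fit was corrected for GC content and length, which added MYC, DVL2 and BCL9, and 5 without shControl replicate 3, which added MYC and FZD3. Calls over all genes were also more frequent in these fits: 16.7% of the Wnt genes stood beside 13.5% of all genes with the correction, and 13.9% beside 12.2% without that library.

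**Figure D1:**
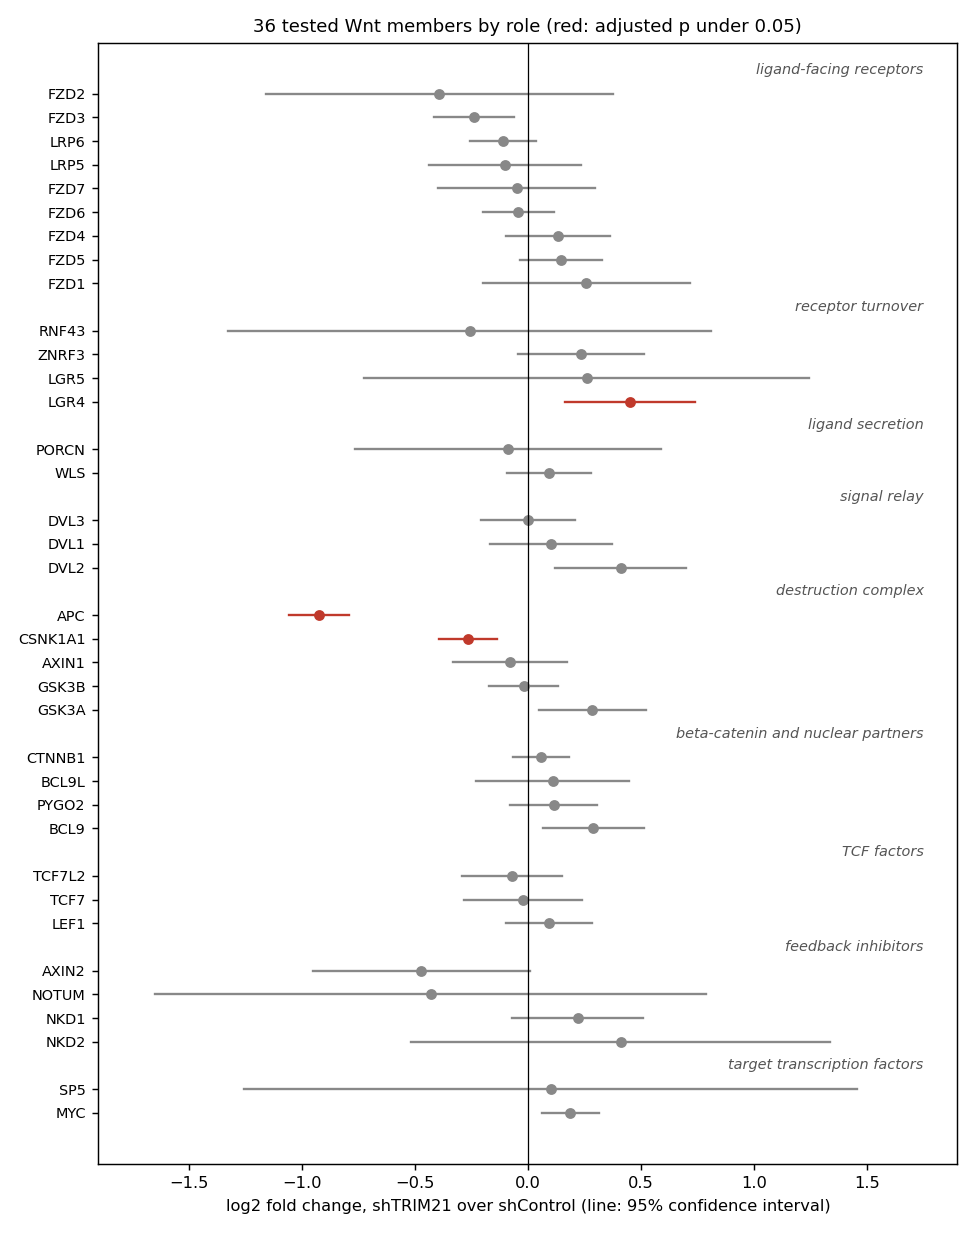
Log2 fold change of shTRIM21 over shControl for each of the 36 tested Wnt genes, ordered by role, with bars for the 95% confidence interval of the edgeR fit (3 libraries per group). APC stands apart at -0.92, and the lowly expressed genes such as SP5, NOTUM and RNF43 have the widest intervals.

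The sequences shown next belong to the 3 genes that passed the test and to the 2 Wnt genes with a TCF motif in the start regions scanned. The RefSeq (GRCh38.p14) start regions used here covered 26 of the 39 genes, 34 regions in all. Each ran from 250 bases before to 50 bases after a transcript start. AXIN2, LGR5, MYC, NKD1, NOTUM, ASCL2 and ZNRF3 were among the genes without a region there, so they were not scanned and the shares do not cover them. The letters CTTTGAT or CTTTGAA, a core of the TCF recognition sequence, occurred on either strand in 2 of the 34 (5.88%), beside 2409 of all 35116 such regions (6.86%). The matches lay in SP5, which had 3, and in DKK1, which had 1; both genes were barely expressed here. Neither of the 2 regions of APC held one, and no match says only that these letters are not in the window. Printed for SP5 (chr2:170715087-170715336) and APC (chr5:112707248-112707497 and chr5:112737635-112737884), all on the plus strand, are the 250 bases before the start. Capitals mark motif letters, read on the plus strand, so TTCAAAG is CTTTGAA on the minus strand:
SP5 start region: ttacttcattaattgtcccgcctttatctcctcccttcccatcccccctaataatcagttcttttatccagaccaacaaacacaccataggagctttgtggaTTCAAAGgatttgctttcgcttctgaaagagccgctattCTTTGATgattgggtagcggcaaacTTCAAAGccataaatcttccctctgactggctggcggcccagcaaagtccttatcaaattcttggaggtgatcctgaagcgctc
APC upstream start region: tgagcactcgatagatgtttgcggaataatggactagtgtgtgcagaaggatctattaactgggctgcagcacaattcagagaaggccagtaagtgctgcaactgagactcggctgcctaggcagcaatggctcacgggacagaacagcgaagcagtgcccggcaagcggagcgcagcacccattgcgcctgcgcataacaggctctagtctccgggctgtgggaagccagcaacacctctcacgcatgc
APC downstream start region: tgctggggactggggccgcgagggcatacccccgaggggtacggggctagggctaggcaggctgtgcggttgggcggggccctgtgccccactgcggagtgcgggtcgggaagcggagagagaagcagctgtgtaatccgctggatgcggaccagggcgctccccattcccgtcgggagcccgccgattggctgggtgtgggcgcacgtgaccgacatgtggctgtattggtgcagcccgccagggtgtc
DKK1 motif window (chr10:52314175-52314203): ccctcccagcgCTTTGAAatcccatcccg

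The 2 APC regions differed in base composition, at 56.4% GC for the upstream one and 70.0% for the downstream one. The counts are per gene, so they do not show which APC start was used.

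For 2 sequences of 7 bases picked in earlier work on the same fold changes, the 3′ UTR of the longest protein-coding transcript was searched. AGTGGAA occurred in that of CSNK1A1 and GTGTCAC in that of LGR4, while the APC 3′ UTR of 2113 bases held neither. Each is shown in a 29-base window of the GENCODE 29 transcript, with the 7 bases in capitals:
CSNK1A1, AGTGGAA from base 260 of a 3′ UTR of 4656 bases: gcattttttcaAGTGGAAaagttaactaa
LGR4, GTGTCAC from base 106 of a 3′ UTR of 1906 bases: atcactgcctgGTGTCACttagaagaagg

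Across all genes with an annotated 3′ UTR, AGTGGAA was in 41.3% of 610 called lower, 12.8% of 561 called higher and 14.4% of 10821 not called, with median UTR lengths of 2636, 1175 and 1271 bases. For GTGTCAC the shares were 10.3%, 21.6% and 9.09%. The shares are not matched for UTR length and, as the sequences were picked from these fold changes, they are a description only. Of the 39 Wnt genes, 6 hold AGTGGAA (FZD3, FZD7, LRP6, WLS, CSNK1A1 and BCL9) and 4 hold GTGTCAC (LGR4, AXIN1, GSK3B and NKD1). The log2 fold change was negative in 4 of the 6 and positive in WLS and BCL9, and it was positive in LGR4 and NKD1 and negative in AXIN1 and GSK3B. Only CSNK1A1 and LGR4 of these genes passed the test.

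The destruction complex held the largest change among the Wnt genes. APC (ENSG00000134982, chr5:112707498-112846239, plus strand, hg38) binds beta-catenin and AXIN and is the tumour suppressor most often lost in colorectal cancer. It had 105, 100 and 101 CPM in the shTRIM21 libraries, against 196, 195 and 190 CPM in the shControl libraries. Every shTRIM21 library was thus far below every shControl library, while libraries of 1 group differed little. The raw counts behind these levels were 2671, 2230 and 2613 reads in shTRIM21 and 4780, 4772 and 5336 reads in shControl. APC fell by 0.92 on the log2 scale (SE 0.06, adjusted p = 2.58e-08), and the 95% confidence interval of the fold ran from 0.481 to 0.577. Its p was the 5th smallest of all 14002 genes tested. Across the 14 alternative settings the log2 fold change stayed between -0.94 and -0.82, and APC was called in each.

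CSNK1A1 (ENSG00000113712, chr5:149492197-149551552, minus strand) encodes casein kinase 1 alpha, which places the priming phosphate on beta-catenin. It had 280, 309 and 307 CPM in shTRIM21, against 355, 351 and 369 CPM in shControl. The groups did not overlap, with replicate 1 the lowest of the shTRIM21 libraries. CSNK1A1 fell by 0.26 on the log2 scale (SE 0.06, adjusted p = 0.0115). The call was lost without shTRIM21 replicate 1, where the log2 fold change was -0.22 and the adjusted p 0.0565. CSNK1A1P1, a processed copy, had up to 6 reads per library, and CSNK1A1L was listed at 0 reads in every library. The sources used here do not say how reads shared by these genes were counted.

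The remaining complex members did not pass. GSK3A, a kinase that phosphorylates beta-catenin, had 49.3, 38.1 and 35.8 CPM in shTRIM21, against 34.5, 35.5 and 31.3 CPM in shControl. Its groups did not overlap, but shTRIM21 replicate 1 stood well above the other two, and the log2 fold change of 0.28 (SE 0.11) had an adjusted p of 0.129. Without that library the log2 fold change was 0.13 (adjusted p = 0.542). The paralogous kinase GSK3B averaged 123 ± 8.90 CPM in shTRIM21 and 124 ± 7.22 CPM in shControl (SD, n = 3 each). AXIN1, the scaffold that limits the assembly of the complex, averaged 27.4 ± 3.06 CPM in shTRIM21 and 29 ± 4.41 CPM in shControl.

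**Figure D2:**
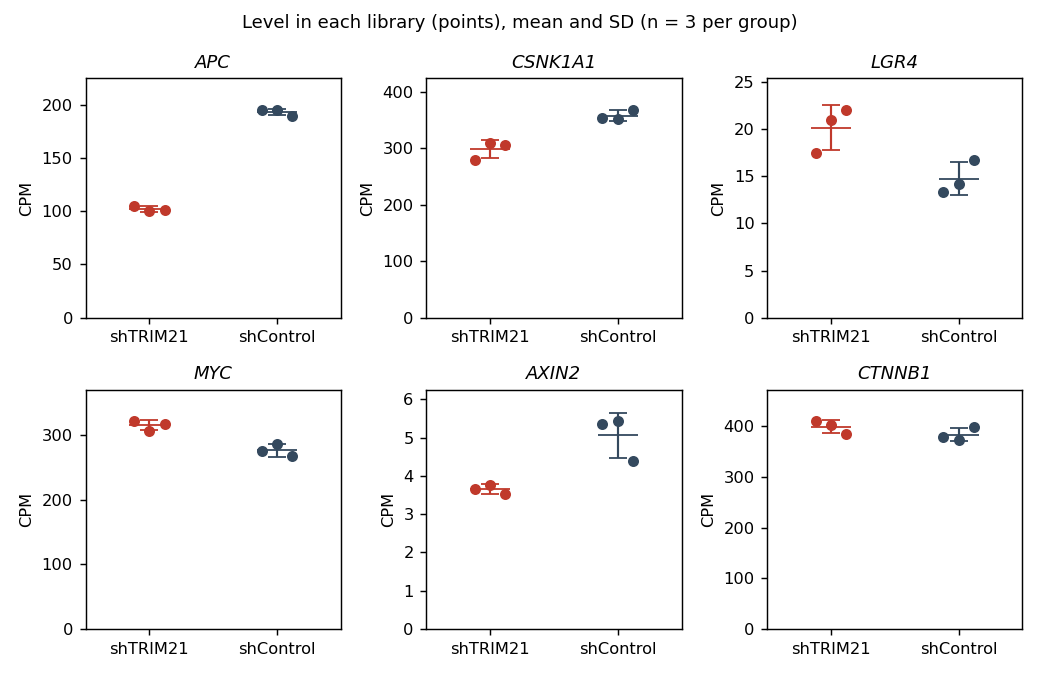
Level in CPM of APC, CSNK1A1, LGR4, MYC, AXIN2 and CTNNB1 in each library (points), with the mean and SD of the 3 libraries per group. For APC all shTRIM21 points lie near 100 CPM and all shControl points above 189 CPM, while the CTNNB1 points overlap.

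Receptor turnover genes set how many Frizzled receptors stay at the surface: ZNRF3 and RNF43 are ubiquitin ligases that remove them, and LGR4 and LGR5 are R-spondin receptors that block the ligases. LGR4 (ENSG00000205213, chr11:27365961-27472775, minus strand) had 17.5, 21.0 and 22.1 CPM in shTRIM21, against 13.3, 14.2 and 16.7 CPM in shControl. The lowest shTRIM21 library was just above the highest shControl library. LGR4 rose by 0.45 on the log2 scale (SE 0.14, adjusted p = 0.0458), a fold of 1.12 to 1.67 at 95% confidence. The call was lost in limma-voom (adjusted p = 0.0588) and without shTRIM21 replicate 2 (0.152) or 3 (0.183) or shControl replicate 1 (0.172) or 2 (0.129), with log2 fold changes of 0.38 to 0.44.

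LGR5, a marker of intestinal stem cells as well as a receptor, had 33, 25 and 24 reads in shTRIM21, against 19, 23 and 30 reads in shControl. As levels these were 1.29, 1.12 and 0.927 CPM in shTRIM21, against 0.777, 0.940 and 1.07 CPM in shControl, and the groups overlapped. The log2 fold change of 0.26 (SE 0.47, adjusted p = 0.794) had a 95% interval of the fold of 0.605 to 2.37. Neither a rise nor a fall of up to those sizes could thus be resolved with these libraries. RNF43 averaged 0.822 ± 0.178 CPM in shTRIM21 and 0.99 ± 0.402 CPM in shControl. ZNRF3 averaged 17.1 ± 1.62 CPM in shTRIM21 and 14.5 ± 1.05 CPM in shControl without overlap, and did not pass (adjusted p = 0.314). Per kilobase of the longest annotated protein-coding transcript, LGR4 was the highest of the 4 in both groups, at 3.88 CPM per kb in shTRIM21 and 2.83 in shControl. The next was ZNRF3, at 2.50 CPM per kb in shTRIM21 and 2.12 in shControl. LGR5 and RNF43 were far below both, under 0.3 CPM per kb in each group.

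None of the 9 receptors and co-receptors that face the ligand passed, with 3 log2 fold changes above 0 and 6 below. Per kilobase, FZD6 led in both groups at 41.6 CPM per kb in shTRIM21 and 42.8 in shControl. LRP6 followed at 9.06 CPM per kb in shTRIM21 and 9.79 in shControl, and FZD5 at 7.99 CPM per kb in shTRIM21 and 7.21 in shControl. FZD3, LRP5, FZD4 and FZD7 lay in between, and FZD1 and FZD2 were lowest, at 0.765 to 1.32 CPM per kb. In CPM, FZD6 averaged 158 ± 10.1 in shTRIM21 and 162 ± 15.1 in shControl, so the most abundant Frizzled mRNA differed by less than its spread.

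FZD3 came nearest to a call among the receptors. It had 60.4, 65.3 and 73.6 CPM in shTRIM21, against 84.9, 75.9 and 74.2 CPM in shControl. The groups almost met at replicate 3, and the log2 fold change was -0.24 (SE 0.08, adjusted p = 0.0909). Without replicate 3 of both groups it was -0.35 (adjusted p = 0.0103), without shControl replicate 3 -0.27 (0.039), and with the correction for GC content and length -0.09. FZD4 averaged 23.7 ± 1.34 CPM in shTRIM21 and 21.7 ± 0.796 CPM in shControl, and its groups did not overlap. Exons of FZD4 and FZD6 overlap those of PRSS23 and BAALC-AS1 on the opposite strand. LRP6, which carries the phosphorylated motifs that bind AXIN, averaged 90.8 ± 4.91 CPM in shTRIM21 and 98.1 ± 1.8 CPM in shControl, with the groups touching at replicate 3. The co-receptor LRP5 averaged 21.0 ± 4.84 CPM in shTRIM21 and 22.6 ± 4.52 CPM in shControl. Means were 53.6 CPM in shTRIM21 and 48.4 CPM in shControl for FZD5, and 9.02 CPM in shTRIM21 and 9.35 CPM in shControl for FZD7. They were 6.39 CPM in shTRIM21 and 5.33 CPM in shControl for FZD1, and 2.11 CPM in shTRIM21 and 2.79 CPM in shControl for FZD2. In these 4 Frizzled genes the groups overlapped.

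**Figure D3:**
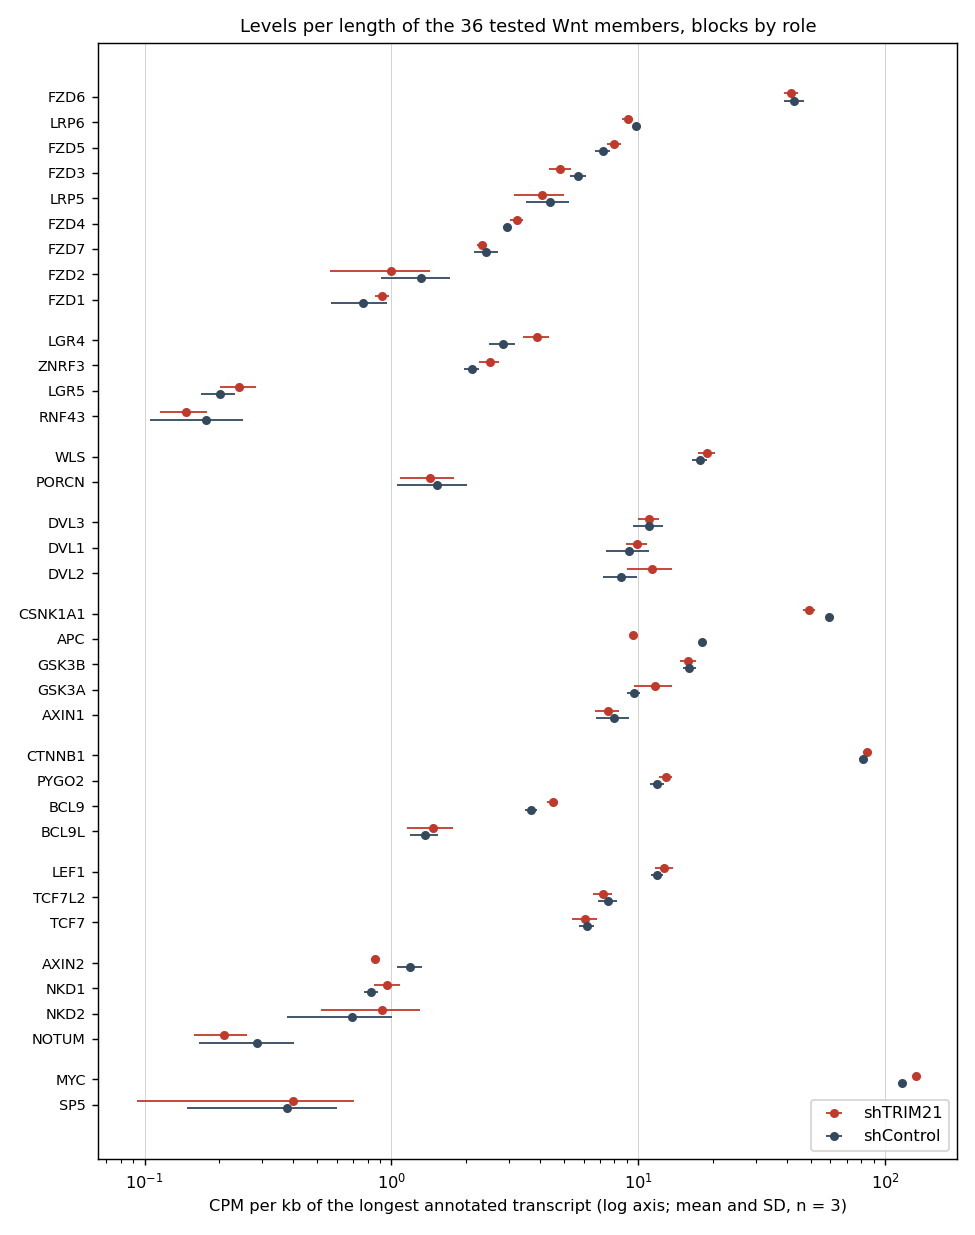
Mean level of the Wnt genes per kilobase of the longest annotated protein-coding transcript (CPM per kb, log axis) in shTRIM21 and in shControl, with SD over 3 libraries. MYC, CTNNB1, CSNK1A1 and FZD6 are the highest, and most pairs of points lie close together.

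Ligand secretion was represented by WLS, the carrier that takes Wnt proteins to the surface, and PORCN, the enzyme that adds their lipid. WLS averaged 52.0 ± 4.05 CPM in shTRIM21 and 48.7 ± 3.30 CPM in shControl. PORCN averaged 2.69 ± 0.662 CPM in shTRIM21 and 2.88 ± 0.905 CPM in shControl. Both overlapped between groups and did not pass.

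The Dishevelled proteins DVL1, DVL2 and DVL3 relay the signal from Frizzled to the destruction complex. DVL2 had 42.3, 29.7 and 30.5 CPM in shTRIM21, against 28.5, 27.6 and 21.1 CPM in shControl. All shTRIM21 libraries were above all shControl libraries, with shTRIM21 replicate 1 the highest and shControl replicate 3 the lowest. The log2 fold change of 0.41 (SE 0.14) had an adjusted p of 0.0708. DVL2 was called with no filter on low counts (adjusted p = 0.00686) and with the GC and length correction (0.0371, log2 fold change 0.32). Without shTRIM21 replicate 1 its log2 fold change was 0.23 (adjusted p = 0.371), and without shControl replicate 3 it was 0.29 (0.162). DVL1 averaged 31.9 ± 3.17 CPM in shTRIM21 and 29.8 ± 5.95 CPM in shControl. DVL3 averaged 59.0 ± 5.79 CPM in shTRIM21 and 59.0 ± 8.0 CPM in shControl.

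Beta-catenin and its nuclear partners had small positive log2 fold changes in the reported fit, with a median of 0.11 over 4 genes, and none passed. The 95% interval of the log2 fold change included 0 for CTNNB1, BCL9L and PYGO2, but not for BCL9. CTNNB1 (ENSG00000168036, chr3:41194741-41260096, plus strand), the beta-catenin gene, had 410, 402 and 385 CPM in shTRIM21, against 378, 373 and 399 CPM in shControl. The groups overlapped, and its log2 fold change was 0.06 (SE 0.06, adjusted p = 0.614). The 95% interval of the fold ran from 0.955 to 1.14, and larger differences of the mRNA lay outside it. Beta-catenin is regulated mainly as a protein, which these libraries do not measure. BCL9, the adaptor between beta-catenin and Pygopus, had 27.5, 27.2 and 30.0 CPM in shTRIM21, against 23.7, 24.1 and 21.5 CPM in shControl. Its groups did not overlap, and the log2 fold change of 0.29 (SE 0.11) had an adjusted p of 0.0998, or 0.0413 with the GC and length correction. Its relative BCL9L averaged 14.7 ± 3.12 CPM in shTRIM21 and 13.6 ± 1.74 CPM in shControl. The log2 fold change of BCL9L was 0.11, and -0.08 without shTRIM21 replicate 1. PYGO2, which binds the chromatin mark read by this complex, averaged 40.6 ± 2.31 CPM in shTRIM21 and 37.5 ± 2.31 CPM in shControl.

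TCF factors bind DNA and recruit beta-catenin. Per kilobase, LEF1 was the highest at 12.7 CPM per kb in shTRIM21 and 11.9 in shControl, ahead of TCF7L2 at 7.17 CPM per kb in shTRIM21 and 7.54 in shControl, and TCF7 at 6.08 CPM per kb in shTRIM21 and 6.18 in shControl. LEF1 had 48.3, 43.3 and 41.4 CPM in shTRIM21, against 39.2, 41.7 and 43.6 CPM in shControl. The groups overlapped, and the log2 fold change was 0.09 (SE 0.09, adjusted p = 0.589). TCF7L2, the main TCF factor of the gut epithelium, averaged 29.7 ± 2.56 CPM in shTRIM21 and 31.2 ± 2.70 CPM in shControl. TCF7 averaged 20.3 ± 2.35 CPM in shTRIM21 and 20.6 ± 1.46 CPM in shControl. TCF7L1, known mostly as a repressor, had 0, 0 and 0 reads in shTRIM21, against 1, 0 and 1 reads in shControl, and was not tested. The exons of LEF1 and TCF7 overlap those of LEF1-AS1 and SKP1 on the opposite strand, 2 of 13 Wnt genes with such an overlap. The others are FZD4, FZD6, LGR5, RNF43, WLS, DVL1, BCL9L, PYGO2, TCF7L2, NKD1 and DKK1. The sources used here do not say whether strand was used in counting, a limit on the levels of all 13. SKP1 had 6133 to 6788 reads in shTRIM21 and 6219 to 8387 reads in shControl. None of the 3 called Wnt genes overlaps exons of an opposite-strand gene.

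Feedback inhibitors are target genes that turn the pathway down. AXIN2 (ENSG00000168646, chr17:65528563-65561647, minus strand), a scaffold like AXIN1 and the most widely used target readout, had 93, 84 and 91 reads in shTRIM21, against 131, 133 and 123 reads in shControl. Its levels were 3.6, 3.8 and 3.5 CPM in shTRIM21, against 5.4, 5.4 and 4.4 CPM in shControl, without overlap. The log2 fold change of -0.47 (SE 0.23) had an adjusted p of 0.231 and a 95% interval of -0.95 to 0.01, and none of the alternatives called it. NKD1, which binds Dishevelled, averaged 16.5 ± 2.01 CPM in shTRIM21 and 14.2 ± 0.951 CPM in shControl, with overlap and no call. NKD2 averaged 1.97 ± 0.848 CPM in shTRIM21 and 1.49 ± 0.676 CPM in shControl. NOTUM, which strips the lipid from Wnt proteins, had 10, 10 and 16 reads in shTRIM21, against 16, 23 and 11 reads in shControl. DKK1, a secreted blocker of LRP5 and LRP6, had 0, 2 and 0 reads in shTRIM21, against 10, 1 and 0 reads in shControl. Most of the DKK1 reads thus came from shControl replicate 1, and the gene was not tested.

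Among the target transcription factors, MYC, a driver of cell growth, had 322, 306 and 317 CPM in shTRIM21, against 276, 286 and 267 CPM in shControl. Every shTRIM21 library was above every shControl library, by a log2 fold change of 0.19 (SE 0.06) with an adjusted p of 0.0558. It passed in 6 of the 14 alternatives, with adjusted p from 0.0197 in DESeq2 to 0.0478 with a filter of at least 1 CPM in 3 libraries. SP5, a repressor of the Sp family, had 38, 15 and 7 reads in shTRIM21, against 22, 28 and 7 reads in shControl, a spread within each group larger than any difference between them. ASCL2, the intestinal stem cell factor, had 1, 2 and 0 reads in shTRIM21, against 2, 2 and 0 reads in shControl.

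**Figure D4:**
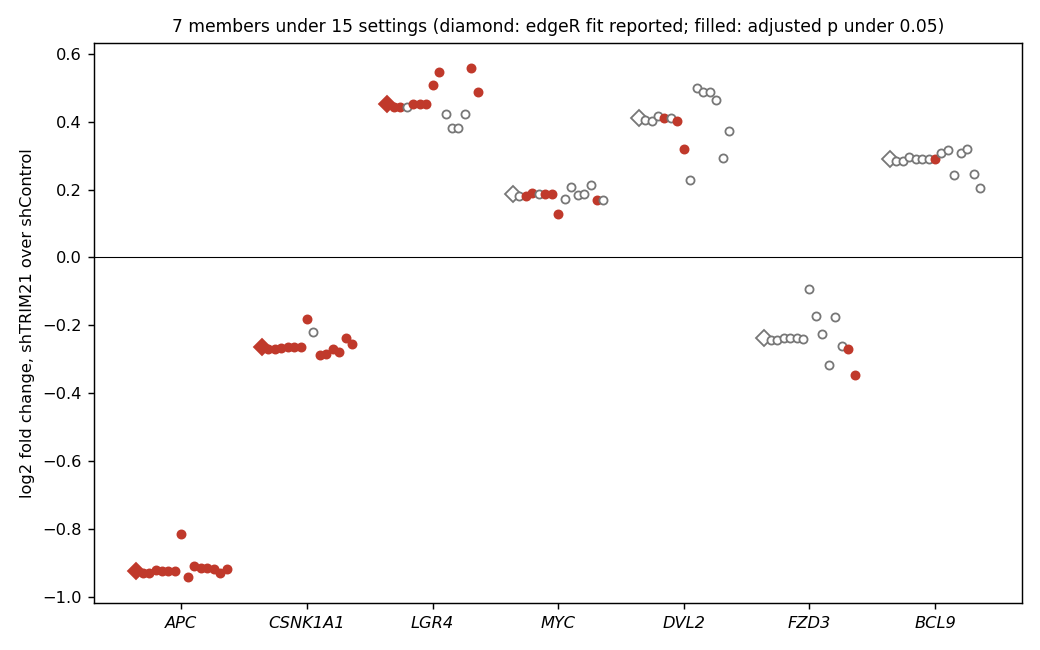
Log2 fold change of 7 Wnt genes in the reported edgeR fit (diamond) and under the 14 alternative settings (circles), filled where the adjusted p was under 0.05. APC is filled in every setting, and CSNK1A1 in all except the fit without shTRIM21 replicate 1. LGR4, MYC, DVL2, FZD3 and BCL9 are filled in some only.

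Intervals were wider for the genes at low level, and the cause was not tested. The median half-width of the 95% interval was 0.21 on the log2 scale for the 26 tested Wnt genes at 10 CPM or more, and 0.85 for the 10 below, of which 0 passed. Among the 36 tested Wnt genes, those rich in GC also moved with single libraries, and the same was not computed over all genes. In the 9 tested Wnt genes with at least 60% GC in the transcript (FZD2, LRP5, DVL1, DVL2, AXIN1, BCL9L, NKD2, NOTUM and SP5), replicate 1 was the highest shTRIM21 library in 8 and replicate 3 the lowest shControl library in 8. In the 27 genes with less GC these numbers were 11 and 15. Of the GC-rich genes, FZD2, NKD2, NOTUM and SP5 were also below 10 CPM, so level and GC content were not separated. The median ratio of shTRIM21 replicate 1 to the mean of replicates 2 and 3 was 1.41 in the GC-rich genes and 1.03 in the others. For shControl replicate 3 against replicates 1 and 2 it was 0.706 in the GC-rich genes and 0.972 in the others. Across the 36 genes, which share their libraries, Spearman's rank correlation between GC content and the first ratio was 0.62, and with the second it was -0.80. Between GC content and the log2 fold change of shTRIM21 over shControl it was 0.10 in the same genes.

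Beyond these 39, 180 further genes of the pathway were listed by function, and 124 of them were tested. Of the 124, 2 rose and 12 fell in shTRIM21, or 11.3% called, beside 9.08% of all genes. Over the 124, the median log2 fold change was -0.06. Earlier results of these data were known when the lists were chosen, so the shares called describe the lists and do not test for an excess. Of 19 Wnt ligands, 9 had 0 reads in all libraries and 4 were tested, with 0 called. WNT2B averaged 16.7 ± 1.40 CPM in shTRIM21 and 20.5 ± 2.50 CPM in shControl and did not pass (adjusted p = 0.183). Of 21 secreted and membrane modulators 3 were tested, and of 9 further receptors 4 were tested, with 0 called in either list.

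Among 29 tested further genes of the destruction complex and beta-catenin turnover, 0 rose and 3 fell, or 10.3% called, close to the 9.08% of all genes. FBXW11, an F-box protein that recognises phosphorylated beta-catenin, had 83.3, 91.9 and 87.5 CPM in shTRIM21, against 112, 104 and 122 CPM in shControl. It fell by 0.37 on the log2 scale (SE 0.07, adjusted p = 0.00435), without overlap. PPP2R5E, a regulatory subunit of protein phosphatase 2A, averaged 115 ± 11.4 CPM in shTRIM21 and 144 ± 6.58 CPM in shControl (adjusted p = 0.0103), a call lost without shTRIM21 replicate 1 or 2. USP7, a deubiquitinase, averaged 232 ± 9.74 CPM in shTRIM21 and 273 ± 12 CPM in shControl (adjusted p = 0.0225), a call lost in 5 of the 6 fits that left out 1 library.

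Of 23 tested further nuclear components, 1 rose and 1 fell, or 8.7% called, also close to the 9.08% of all genes. TBL1XR1, which exchanges corepressors for coactivators, had 327, 344 and 334 CPM in shTRIM21, against 238, 227 and 257 CPM in shControl. It rose by 0.48 on the log2 scale (SE 0.06, adjusted p = 8.8e-05), with a wide gap between the groups. CTBP2, a corepressor, averaged 96.9 ± 5.61 CPM in shTRIM21 and 120 ± 7.81 CPM in shControl (log2 fold change -0.31, adjusted p = 0.0115). That call was lost without shTRIM21 replicate 3, and also when both replicates numbered 3 were left out. Exons of TBL1XR1 and CTBP2 overlap those of TBL1XR1-AS1 and ZRANB1 on the opposite strand.

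Of 31 tested further target genes, 1 rose and 6 fell, or 22.6% called, beside 9.08% of all genes (4.43% higher and 4.66% lower). Over the 31, the median log2 fold change was -0.10. This list was chosen with earlier results of these data known, so the 22.6% cannot be read as an excess among target genes. CCND1, the cyclin D1 gene that drives entry into S phase, had 124, 130 and 136 CPM in shTRIM21, against 219, 217 and 221 CPM in shControl. It fell by 0.75 on the log2 scale (SE 0.06, adjusted p = 4.31e-07), and no library of one group came near the other. ENC1, an actin-binding protein, had 56.5, 58.7 and 58.6 CPM in shTRIM21, against 101, 94.2 and 88.4 CPM in shControl. It fell by 0.71 (SE 0.08, adjusted p = 6.71e-06), again with a wide gap.

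JUN, a subunit of the AP-1 factor, went the other way, at 398 ± 9.72 CPM in shTRIM21 and 320 ± 11.1 CPM in shControl (log2 fold change 0.32, adjusted p = 0.00235). SLC12A2, an ion cotransporter of secretory epithelium, averaged 68.4 ± 6.10 CPM in shTRIM21 and 88.2 ± 3.79 CPM in shControl (-0.37, adjusted p = 0.00634). CCND2, the cyclin D2 gene, averaged 404 ± 9.17 CPM in shTRIM21 and 478 ± 34.1 CPM in shControl (-0.24, adjusted p = 0.0241), a call lost in 5 of the 6 fits that left out 1 library. The remaining 2 that fell were CD44, a hyaluronan receptor (-0.21, adjusted p = 0.0313), and SOX4, a transcription factor (-0.31, adjusted p = 0.0319). CD44 lost its call in 5 of those 6 fits and SOX4 in all 6. CCND1 and ENC1 both overlap exons of a gene on the opposite strand. For CCND1 that gene is LTO1, which had 224 to 300 reads in shTRIM21 and 303 to 355 reads in shControl.

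Of 22 tested planar polarity and beta-catenin-independent genes, 1 passed, or 4.55% beside 9.08% of all genes. ROCK2, a kinase that acts on the actomyosin cytoskeleton, averaged 180 CPM in shTRIM21 and 210 CPM in shControl (log2 fold change -0.22, adjusted p = 0.0395), a call lost with the GC and length correction and in 5 of the 6 fits that left out 1 library. Of 8 tested genes of the cadherin-catenin complex, which ties beta-catenin to cell junctions, 1 passed, or 12.5%. CTNNAL1, an alpha-catenin relative, averaged 118 ± 3.25 CPM in shTRIM21 and 145 ± 16.7 CPM in shControl (-0.30, adjusted p = 0.0201), a call lost without any one of the 3 shTRIM21 libraries and without replicate 3 of both groups.

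**Figure D5:**
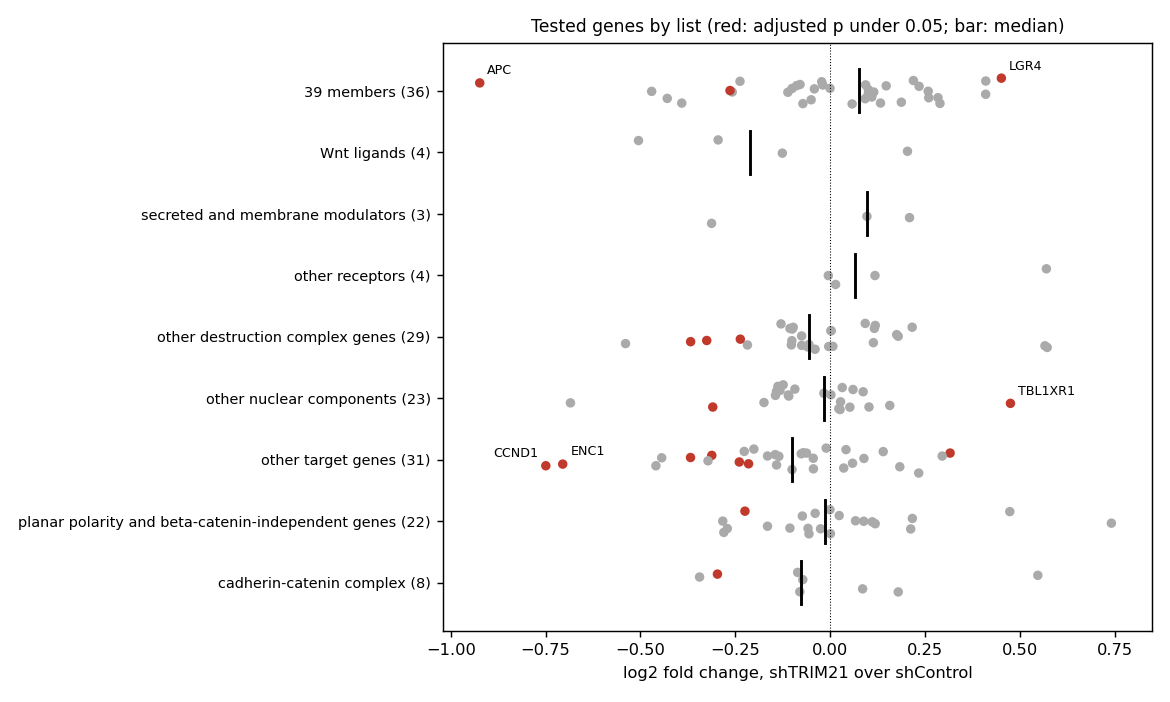
Log2 fold change of shTRIM21 over shControl for each tested gene (points), grouped into the 39 Wnt genes and the further pathway lists, with the number tested in brackets, the list median as a bar and genes with an adjusted p under 0.05 in red. APC, CCND1 and ENC1 lie furthest to the left of the called genes, and TBL1XR1 and LGR4 furthest to the right.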

How the data were processed

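RNA-seq of 6 HCT116 libraries, 3 shTRIM21 and 3 shControl, was analysed from the per-gene read counts that the authors deposited, 1 table per library. The submitters' processing notes name TopHat2 2.1.1, edgeR 3.38.1, limma 3.52.2 and hg38; no source used here gives the counting tool, its strand setting or the annotation. Totals were 22656160 to 27123657 reads per library, and the biological coefficient of variation was 10.7%.

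Genes were kept with edgeR's filterByExpr (14002 of 28278 symbols) and scaled by TMM. They were tested with edgeR 4.0.16 glmQLFit and glmQLFTest (R 4.3.3) and the group as the only term, and p-values were adjusted by the Benjamini-Hochberg method over all genes, with a threshold of 0.05. CPM values are counts per 1000000 reads of the TMM-scaled library size. Transcript length, GC content, 3′ UTRs and positions came from GENCODE 29, which held 26216 of the symbols. Length, GC content and 3′ UTR were those of a gene's longest protein-coding transcript, or of its longest transcript where none was protein-coding. Length and GC content were found for 13454 of the tested genes (96.1%) and all 39 Wnt genes.

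The 14 alternatives were DESeq2 1.42.0, limma-voom (limma 3.58.1), RLE scaling, 2 other filters, a replicate block, a GC and length correction (loess offset), each library left out in turn, and replicate 3 of both groups left out. The code was checked on simulated counts. The 39 genes, the lists and the 2 sequences of 7 bases were chosen with earlier results of these data known. All 39 are named, in full where they passed and for AXIN2, LGR5, CTNNB1, MYC and LEF1. Of each further list, up to 5 that passed are named, by smallest p; WNT2B, CD44 and SOX4 were added after their values were seen.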

Additional observations from a re-analysis of the deposited data

How the results depend on the processing

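Genes called over the whole table numbered 1272 in the reported fit, 602 to 1737 with 1 library left out and 1896 with the GC and length correction. Called Wnt genes numbered 3, against 2 to 5 with 1 library left out and 6 with the GC and length correction. Those of the further lists numbered 14, against 7 to 15 with 1 library left out and 21 with that correction. Of the 3 called Wnt genes only APC passed under all 14 alternatives, and of the 14 further genes FBXW11, TBL1XR1, CCND1, ENC1, JUN and SLC12A2 did. The sign of 23 of the 36 tested Wnt genes was the same throughout. It changed for 13, none of them called; the cause was not tested. For these the log2 fold change ran, with 1 library left out, from -0.10 to 0.041 in FZD6, -0.30 to 0.037 in LRP5, -0.49 to 0.10 in RNF43, -0.30 to 0.14 in PORCN, -0.043 to 0.23 in DVL1, -0.10 to 0.087 in DVL3, -0.17 to 0.052 in AXIN1, -0.060 to 0.039 in GSK3B, -0.077 to 0.22 in BCL9L, -0.083 to 0.072 in TCF7, -0.12 to 0.0092 in TCF7L2, -0.0029 to 0.64 in NKD2 and -0.69 to 0.52 in SP5. With the GC and length correction it was 0.011 for FZD6, -0.025 for DVL1, 0.066 for GSK3B and -0.045 for SP5. Without replicate 3 of both groups it was -0.011 for DVL1 and 0.023 for TCF7. For DVL3 it was 0.0097 in limma-voom, 0.00019 with no filter and 0.0037 with the replicate block.

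Same-numbered libraries correlated by 0.096, -0.0123 and 0.0907 after group means were removed, and the labels state no pairing. These values cannot tell whether the replicate numbers pair the samples, as different-numbered libraries were not compared. The replicate block gave 1699 calls over all genes and 5 among the Wnt genes, adding MYC (adjusted p = 0.0414) and DVL2 (0.0118). For AXIN2, LGR5 and SP5, all under 10 CPM, the intervals were too wide to resolve modest differences.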
